A study of Mus musculus with 20 samples.

Results

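The presynaptic vesicle release machinery was taken as all protein-coding genes of the deposited table whose mouse symbol names a synaptotagmin (Syt), a synapsin (Syn1 to Syn3), a complexin (Cplx), a synaptobrevin (Vamp), a syntaxin (Stx), a syntaxin-binding protein (Stxbp), a member of the Rab3, Rims, Unc13, Snap, Sv2 or synaptogyrin (Syngr) families, or synaptophysin (Syp). This rule used symbols only and gave 71 genes of the 19463 in the table. RNA was from whole brains of male C57BL/6J mice, 5 in each of 4 groups, which were WT and Katnal2-KO at 3 weeks of age (P21) and WT and Katnal2-KO at 10 weeks (P70). The Katnal2-KO mice carry a deletion made from the Katnal2tm1a(EUCOMM)Wtsi allele of MAE-4330 embryonic cells. Its cassette was removed by Protamine-Flp and exon 3 by cell-permeable Cre added to 2-cell embryos, so the deletion is not limited to a cell type. Katnal2 belongs to the katanin family of microtubule-severing proteins, and the study asked how its loss changes the brain transcriptome at each age.

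Neurons release transmitter when a synaptic vesicle fuses with the presynaptic membrane. Fusion is driven by SNARE proteins, a vesicle SNARE (synaptobrevin, Vamp) that zips together with plasma membrane SNAREs (a syntaxin and SNAP-25). Munc13 (Unc13) and RIM (Rims) proteins dock and prime vesicles at the active zone, Rab3 proteins carry vesicles there, complexins clamp and promote fusion, and synaptotagmins sense the calcium that triggers it. Synapsins, synaptophysin, SV2 proteins and synaptogyrins are abundant proteins of the vesicle itself. Several members of these families, such as Vamp3, Stx4a, Stx12 or Snap29, serve membrane traffic in many cell types rather than transmitter release, and the symbol rule takes them in as well.

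Across the table, the estimated depth was 26100000 to 35700000 reads at P21 and 23300000 to 28000000 reads at P70. The 8 P70 mice numbered 1 to 4 had 23300000 to 24500000 reads, all below the P21 mice, and the 2 P70 mice numbered 5 had 27900000 and 28000000, so depth moved with age, and its part in the age changes was not tested. Katnal2 itself had normalized counts of 99.3 to 115.4 in WT and 78.1 to 96 in KO mice at P21, without overlap, and of 101.3 to 141.5 and 95.1 to 125.5 at P70, with overlap. Counts over the whole gene need not fall when 1 exon is removed, so these values check the labels only weakly. Markers of brain cells were present in all 20 mice, with none of the genes of the 14 marker lists at 0 throughout. Mature oligodendrocyte markers (6 genes) summed to 379118 to 558363 at P21 and 144591 to 191620 at P70, immature neuron markers (4 genes) to 2202 to 3350 and 1352 to 2196, and blood markers (5 genes) to 12038 to 61276 and 6982 to 13110. Pan-neuronal markers (10 genes) summed to 119738 to 124444 at P21 and, in the P70 mice numbered 1 to 4, to 112813 to 118240. In whole-brain RNA, fewer cells of a type and less RNA per cell cannot be told apart, and the part of these shifts in the age changes below was not tested. Both P70 mice numbered 5, one WT and one KO, stood apart from their groups, with pan-neuronal sums of 131516 and 137055. Counts of genes called with age are therefore also given without these mice.

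Of the 71 genes, 70 had a mean normalized count of at least 10 and were tested. Stx11, a syntaxin known from immune cells, was the exception, with 0 to 14.6 normalized counts in the 20 mice. Another 6 annotated genes with matching symbols (Cplx4, Stx19, Syngr4, Syt8, Vamp7 and Vamp9) were not analysed here. Because long genes collect more reads, levels were compared between genes as normalized counts per kb of exon. On that scale Snap25, the plasma membrane SNARE of neurons, stood first in WT mice at P21 with 7761 ± 337 per kb (SD, n = 5), followed by Cplx1 with 7581 ± 360 and Rab3a with 6891 ± 293. The mice overlapped between each of these and the next. Syp (6515 ± 292 per kb), Vamp2 (5710 ± 118), Syn1 (4779 ± 137), Cplx2 (4691 ± 346) and Syt11 (4168 ± 146) were also among the first 10. Vamp2 lay above Syn1 without overlap between mice. Syt1, the main calcium sensor of fast release in forebrain, came just after at 4110 ± 169 per kb, whereas its hindbrain counterpart Syt2 had 590 ± 74.1 per kb. Vamp2 likewise exceeded its relative Vamp1 (748 ± 53 per kb) in every mouse, and the plasma membrane syntaxin Stx1a had 1879 ± 98 per kb. Dividing by the longest protein-coding transcript in place of all exons kept 8 or more of the 10 highest members in each group, but changed their order. In WT mice at P21, Snap25 then had 24906.5 per kb, ahead of Syp with 13103.7, and Cplx1 stood at rank 5. Syt1 (7110.3) then lay above Syt11 (4321.5), and Vamp1 had 2526.7 per kb.

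The synaptic vesicle proteins made up 23.5% of the members' summed level per kb in WT mice at P21 and 21.6% at P70, and in KO mice 23.3% and 21.5%. The 5 synaptic SNAREs went from 20.2% to 21.7% in WT and from 20.1% to 21.9% in KO mice, and the complexins from 12.3% to 13.4% and from 12.8% to 13.7%. These shares are descriptions of group means without a test.

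**Figure D1:**
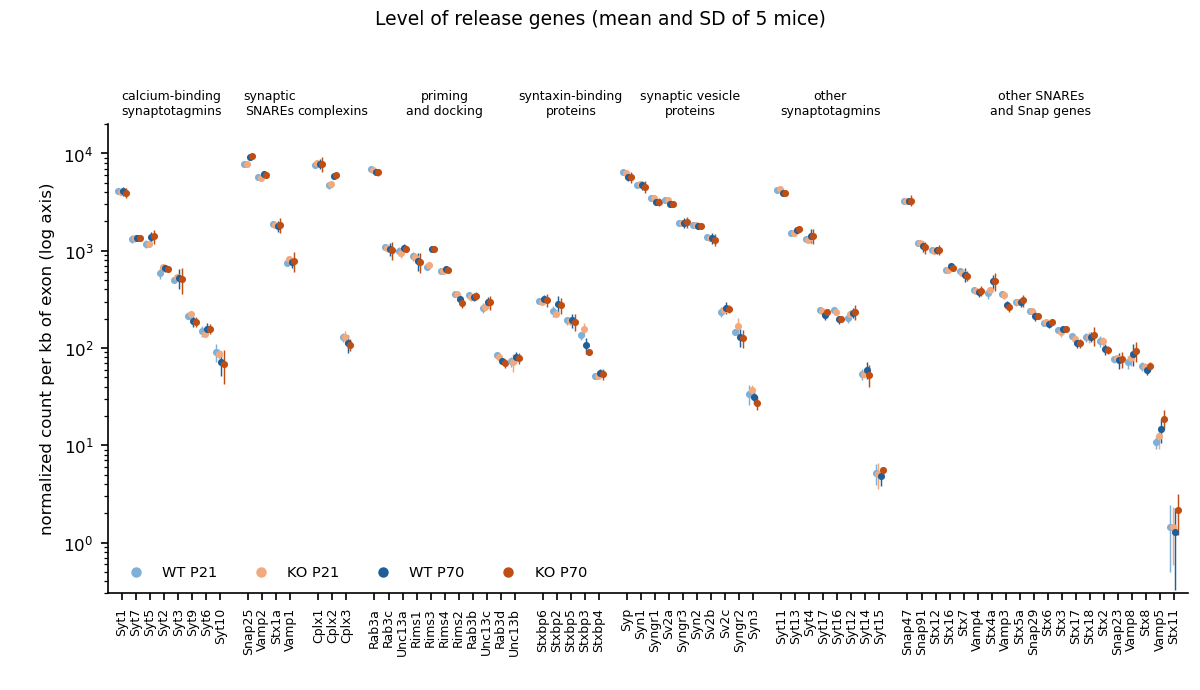
Normalized count per kb of exon (log axis) of release genes, grouped by role and ordered by the level in WT mice at P21. Points are means of 5 mice and bars are SD, and the 4 groups of a gene lie close together next to the spread between genes, which runs from 1.45 per kb for Stx11 to 7761 per kb for Snap25 in WT mice at P21.

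From P21 to P70 a few release genes changed in both genotypes and most did not pass the test. Rims3, Snap25 and Cplx2 rose in WT and in KO mice, and Vamp3 and Syt16 fell in both. In WT mice, 6 of 70 members passed an adjusted p of 0.05 (8.57%), 4 higher and 2 lower at P70, against 11.1% of all 17637 genes tested (5.53% higher and 5.62% lower). In KO mice, 7 of 70 passed (10%), 3 higher and 4 lower, against 11.9% of all genes (5.47% higher and 6.4% lower). With an unadjusted p under 0.05 there were 17 members in WT (24.3%, against 24.4% of all genes) and 22 in KO mice (31.4%, against 24.8%). The ages did not overlap for 9 members in each genotype (12.9%, against 10.8% of all genes in WT and 10.9% in KO mice). At the adjusted threshold and by the absence of overlap, the members' shares were near those of the whole table. The median log2 fold change of the members was -0.02 in WT and -0.01 in KO mice, beside 0.00 and -0.01 for all genes. Age and any difference in when the mice of each age were processed cannot be told apart.

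Rims3 encodes a small RIM protein of the active zone that lacks the Rab3-binding part of its larger relatives. It lies at chr4:120854816-120896579 of GRCm38 on the plus strand. Its normalized counts in WT mice 1 to 5 were 5882, 5706, 5104, 4876 and 5788 at P21 and 8925, 8376, 8001, 7599 and 8528 at P70. In KO mice they were 5861, 5986, 5614, 5385 and 5884 at P21 and 8549, 8364, 7575, 8368 and 8517 at P70. All 10 older mice lay above all 10 younger ones. The log2 fold change was 0.60 (SE 0.06, adjusted p = 1.7e-06) in WT and 0.53 (SE 0.06, adjusted p = 6.87e-06) in KO mice, by limma with Benjamini-Hochberg adjustment over all genes. In WT mice it was the 1 member to pass both the adjusted threshold and a change of 1.5-fold.

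Snap25, at chr2:136713453-136782428 on the plus strand, had the highest normalized counts of all members. In WT mice these were 53122, 50512, 55894, 50454 and 53529 at P21 and 63659, 64139, 61751, 62596 and 61485 at P70, and the ages did not overlap. KO mice had 51196 to 53841 at P21 and 62817 to 65331 at P70. The log2 fold change was 0.25 (SE 0.04, adjusted p = 0.000472) in WT and 0.29 (SE 0.04, adjusted p = 0.000106) in KO mice. Its partners Vamp2 and Stx1a did not pass the test, with log2 fold changes of 0.10 in both genotypes for Vamp2 and of -0.08 and -0.02 for Stx1a.

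Cplx2, at chr13:54371349-54383917 on the plus strand, is 1 of the complexins that bind the assembled SNARE complex. In WT mice it had 24494, 22937, 21595, 21369 and 25198 normalized counts at P21 and 28466, 27852, 27604, 28115 and 31793 at P70. KO mice had 23529 to 24423 at P21 and 28087 to 31943 at P70, so the ages were separate in both genotypes. Its log2 fold change was 0.32 (SE 0.06, adjusted p = 0.000774) in WT and 0.29 (SE 0.06, adjusted p = 0.00132) in KO mice. Cplx1 had log2 fold changes of 0.03 and -0.03, neither past the test, and its level was set apart by the mice numbered 5, which had 20537 (WT) and 22645 (KO) normalized counts against 15294 to 16636 in the other P70 mice. The retinal complexin Cplx3 was at low counts, with group means of 319.8 to 385.

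Further core genes of triggered release did not pass the test. Syt1 had log2 fold changes of -0.02 in WT and -0.05 in KO mice (95% intervals -0.20 to 0.16 and -0.23 to 0.12). For the primer Unc13a they were 0.13 and 0.15 (-0.06 to 0.31 and -0.04 to 0.33), and for Syn2, which tethers vesicles in the reserve pool, -0.03 and -0.02 (-0.13 to 0.06 and -0.11 to 0.08). The intervals leave room for changes of the size seen for Snap25 in Unc13a and not in Syn2.

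Vamp3, or cellubrevin, is the synaptobrevin of recycling endosomes in many cell types, and it lies at chr4:151047300-151057963 on the minus strand. WT mice had 1016, 1010.2, 1044, 1069.6 and 989.7 normalized counts at P21 and 880.7, 857.3, 791.5, 714.3 and 797 at P70. KO mice had 923.4 to 1174 at P21 and 710.4 to 903.9 at P70, and in both genotypes every older mouse was below every younger one. The log2 fold change was -0.35 (SE 0.08, adjusted p = 0.00499) in WT and -0.40 (SE 0.08, adjusted p = 0.00136) in KO mice. Syt16, at chr12:73997661-74273267 on the plus strand, is a synaptotagmin relative that does not bind calcium. It had 2176 to 2322 normalized counts in WT mice at P21 and 1525 to 1911 at P70, and 2047 to 2262 and 1721 to 1884 in KO mice. The log2 fold change was -0.33 (SE 0.06, adjusted p = 0.00105) in WT and -0.24 (SE 0.06, adjusted p = 0.0128) in KO mice. The latter had an adjusted p of 0.202 when each mouse was scaled to the pan-neuronal markers.

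Stxbp3 works with the syntaxins of general secretion, and it lies at chr3:108793176-108840526 on the minus strand. In KO mice it had 850.2, 935.4, 996.4, 774 and 664.6 normalized counts at P21 and 481.7, 541.1, 472.9, 482.4 and 455.3 at P70. In WT mice it had 674.5, 703.5, 823.9, 649.5 and 741.6 at P21 and 455.9, 509, 711.3, 639.3 and 521.1 at P70. The ages were separate in KO mice and overlapped in WT mice. The log2 fold change was -0.78 (SE 0.12, adjusted p = 0.000119) in KO and -0.35 (SE 0.12, adjusted p = 0.0538) in WT mice. The difference between those changes was -0.43 (SE 0.16), with an unadjusted p of 0.0171 and an adjusted p of 1, so a difference in the age change between genotypes was not shown. Rims2, an active zone RIM, passed the test in KO mice with -0.29 (SE 0.08, adjusted p = 0.021) and had -0.19 (SE 0.08, adjusted p = 0.145) in WT mice. Its call in KO mice was lost without KO P21 mouse 4 (adjusted p = 0.0602) and with scaling to the pan-neuronal markers (adjusted p = 0.193). Stx4a, a plasma membrane syntaxin of many cell types, passed in WT mice with 0.40 (SE 0.12, adjusted p = 0.0345) and had 0.30 (SE 0.12, adjusted p = 0.126) in KO mice. Its normalized counts in WT mice were 744.4 to 969.2 at P21 and 985.3 to 1122.6 in P70 mice 1 to 4, with 1484 in mouse 5, and leaving out single WT mice gave adjusted p-values up to 0.103. Of its exonic bases, 5.25% lie opposite exons of another gene, and the library kit does not mark strand.

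**Figure D2:**
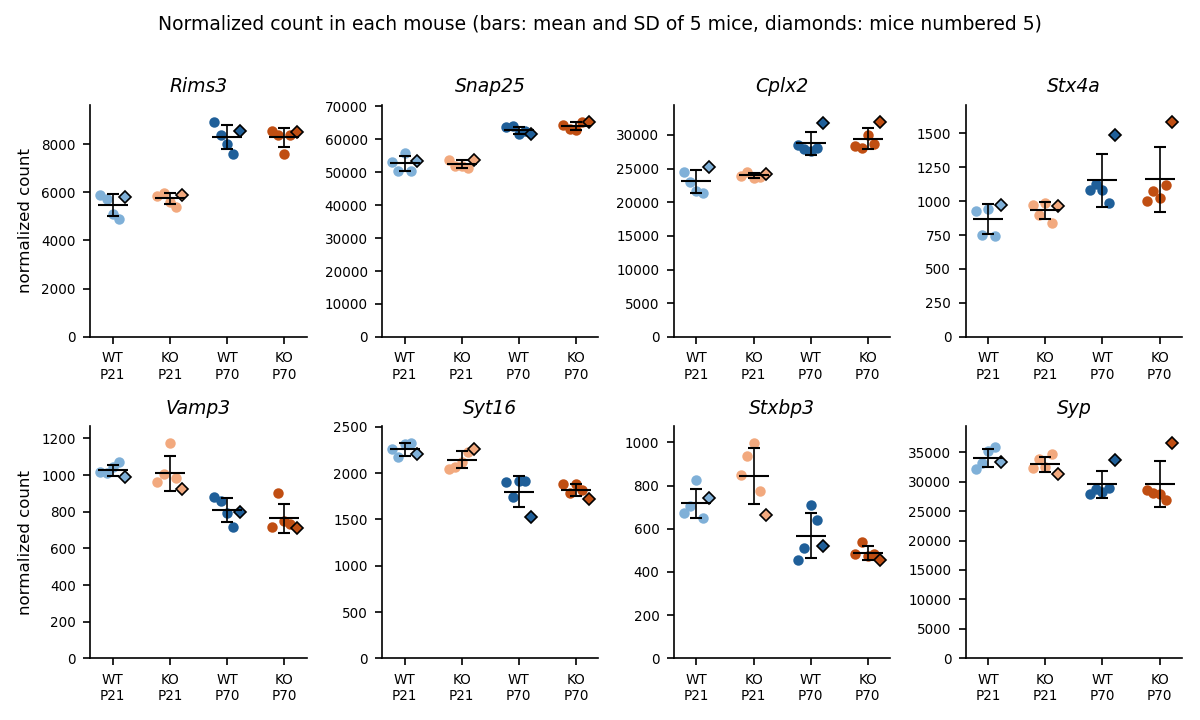
Normalized counts (linear axes from 0) of 8 release genes in each of the 20 mice, with the mean and SD of each group of 5 and diamonds for the mice numbered 5. Rims3, Snap25 and Cplx2 are higher and Vamp3 and Syt16 lower in every P70 mouse than in every P21 mouse of the same genotype, whereas the diamonds of Stx4a and Syp lie above the other P70 mice.

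Promoter windows from RefSeq (GRCm38.p6, an annotated start with mostly the bases before it, 5′ to 3′ on the gene's strand) are shown for 4 members that moved with age. Of the 71 members 56 have an entry, and Stx4a, which has one, is not shown because its call in WT mice was lost in several settings. Capitals mark the letters GGGCGG (a GC box) and TGACGTCA (a cyclic AMP response element), searched on both strands, so that a GC box of the other strand reads CCGCCC. The first 2 genes rose in both genotypes, Syt16 fell in both and Stxbp3 fell in KO mice. Their windows lie at chr4:120854549-120854848 (Rims3, plus), chr13:54302306-54302605 (Cplx2, plus, upstream of the gene's start in GENCODE M21), chr12:73997527-73997826 (Syt16, plus) and chr3:108840453-108840752 (Stxbp3, minus).
Rims3: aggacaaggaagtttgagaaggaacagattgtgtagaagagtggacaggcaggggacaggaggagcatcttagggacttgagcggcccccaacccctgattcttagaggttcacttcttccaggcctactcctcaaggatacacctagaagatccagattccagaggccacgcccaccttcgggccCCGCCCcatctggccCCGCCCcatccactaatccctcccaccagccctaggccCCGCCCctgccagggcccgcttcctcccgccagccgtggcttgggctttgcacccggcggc
Cplx2: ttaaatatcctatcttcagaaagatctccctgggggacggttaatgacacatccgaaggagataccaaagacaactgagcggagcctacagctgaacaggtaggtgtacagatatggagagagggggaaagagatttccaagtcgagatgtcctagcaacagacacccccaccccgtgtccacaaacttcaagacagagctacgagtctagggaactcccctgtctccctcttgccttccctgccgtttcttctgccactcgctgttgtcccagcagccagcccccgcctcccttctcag
Syt16: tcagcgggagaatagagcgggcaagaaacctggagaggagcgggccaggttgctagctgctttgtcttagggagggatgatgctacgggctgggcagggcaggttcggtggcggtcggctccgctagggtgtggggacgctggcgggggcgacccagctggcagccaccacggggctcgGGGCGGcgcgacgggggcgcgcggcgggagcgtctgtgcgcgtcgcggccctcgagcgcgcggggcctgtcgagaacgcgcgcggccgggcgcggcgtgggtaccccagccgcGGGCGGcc
Stxbp3: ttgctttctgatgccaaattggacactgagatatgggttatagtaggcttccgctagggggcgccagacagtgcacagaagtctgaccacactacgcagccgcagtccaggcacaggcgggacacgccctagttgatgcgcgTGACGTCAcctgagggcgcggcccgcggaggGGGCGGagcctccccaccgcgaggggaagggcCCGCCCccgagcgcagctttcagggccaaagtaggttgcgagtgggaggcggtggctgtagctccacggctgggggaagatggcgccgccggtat
The Rims3 window holds 3 GC boxes, Syt16 and Stxbp3 hold 2 each, and Cplx2 holds none. Of all 32851 windows in the table, 35.7% held GGGCGG, and of the 70 windows of members 71.4% did. The TGACGTCA of Stxbp3 occurs in 1.79% of all windows and in 2 of the 70 windows of members. TATAAA occurred in 13.6% of all and 7.14% of the members' windows, and CAGCACC, part of the RE1 element of neuronal genes, in 7.14% and 10%. None of the windows shown held either. A match in these letters is a description of the sequence and says nothing on binding.

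The P70 mice numbered 5 changed the number of members called with age at the adjusted threshold more than any of the planned scalings, filters or fits did. Over the 70 tested members, the median distance from the other 4 mice of the group was 0.26 on the log2 scale in WT and 0.37 in KO mouse 5, against 0.05 to 0.11 in the other 18 mice. Long members tended to be low and short ones high in both, and 15 of the 16 members with over 8 kb of exon lay below their group. Syt10, the lowest in both, is short (1845 exonic bases). Rims1 (7362 exonic bases) had 3607 and 3330 normalized counts in these mice against 5857 to 6575 in the other P70 mice, and Syt3 (3118 exonic bases) had 2283 and 2465 against 1297 to 1560. Across members, the deviation had a Spearman correlation with exonic length of -0.55 in WT mouse 5 and -0.52 in KO mouse 5 (n = 70 genes of 1 library each), and of -0.36 and -0.34 across all tested genes with a length. WT and KO P21 mouse 3 had values of -0.59 and -0.59 across members, with median distances of 0.11. Correlations of similar size occurred in other P21 mice too, such as -0.44 in KO P21 mouse 2 and 0.53 in KO P21 mouse 5. KO P70 mouse 4 had 0.58. Each mouse was set against the mean of the other 4 of its group, so values within a group depend on each other. Those of P70 mice 1 to 4 depend on mouse 5 and cannot show a trend apart from it. At P21, where these mice do not enter, a length trend was seen as well. The cause was not tested.

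**Figure D3:**
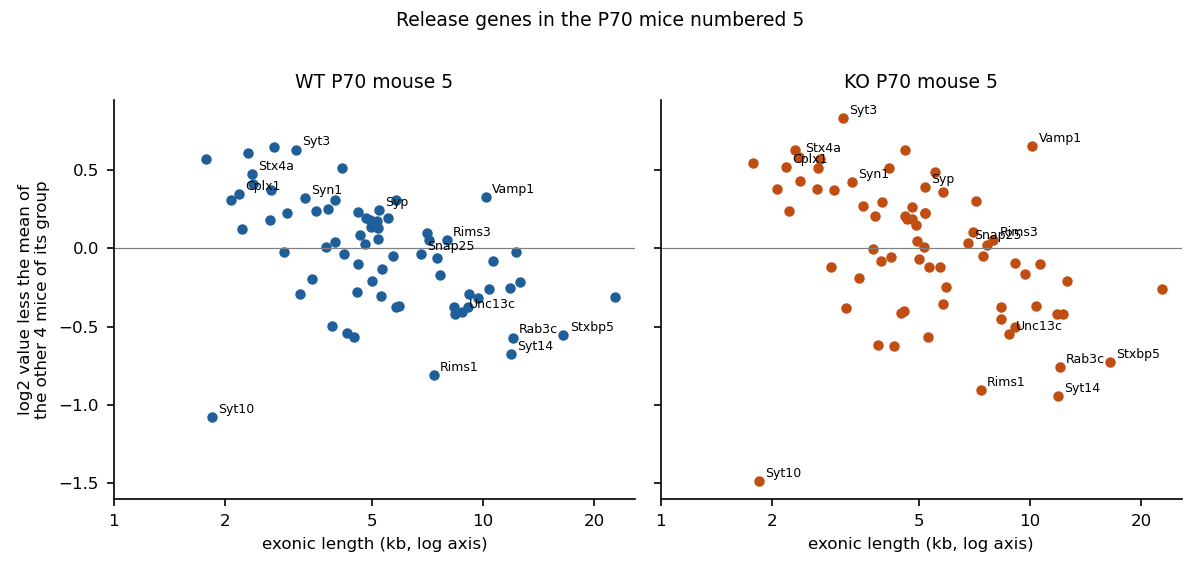
Deviation of the 70 tested release genes in the WT (left) and KO (right) P70 mouse numbered 5 from the mean of the other 4 mice of its group (log2 scale) against exonic length (kb, log axis), 1 point per gene. Of the 16 genes with over 8 kb of exon 15 lie below 0 in each panel, among them Rab3c, Syt14 and Stxbp5, Syt10 lies lowest at -1.08 and -1.49, and short genes such as Cplx1 and Stx4a lie above 0.

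With both of these mice left out, an option added once the values were known, 16 members passed in WT (8 higher and 8 lower, 22.9% against 21.1% of all genes, of which 11.2% were higher and 9.97% lower) and 24 in KO mice (8 higher and 16 lower, 34.3% against 22%, of which 10.9% and 11.1%). The 5 members named above as changed in both genotypes kept their calls. Proteins of the vesicle were among the members that then passed. Syp fell by 0.25 in WT (adjusted p = 0.000153) and by 0.24 in KO mice (adjusted p = 0.000205) on the log2 scale. With all mice its log2 fold changes were -0.20 (adjusted p = 0.075) and -0.16 (adjusted p = 0.163). Its normalized counts in WT mice were 32193 to 35819 at P21 and 27961 to 28924 in P70 mice 1 to 4, with 33687 in mouse 5. In KO mice they were 31232 to 34631 at P21 and 26844 to 28528 in P70 mice 1 to 4, with 36510 in mouse 5, so that 1 mouse per group brought the ages into overlap. Of the exonic bases of Syp, 16.8% lie opposite exons of another gene. Sv2a, a vesicle glycoprotein, fell by 0.16 and 0.18, Syngr1 by 0.17 and 0.20, and Rab3a by 0.13 and 0.14 without both mice numbered 5. In all, 5 of the 10 synaptic vesicle proteins fell in KO and 3 of 10 in WT mice, and none rose. Pan-neuronal markers also summed lower in P70 mice 1 to 4 (112813 to 118240) than at P21 (119738 to 124444). Scaling to these markers was not run without the mice numbered 5, so whether the vesicle proteins fell beyond them was not tested.

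In the same setting, Syt4, a synaptotagmin of dense-core vesicles, rose by 0.19 in WT (adjusted p = 0.0101) and by 0.26 in KO mice (adjusted p = 0.000644). Of its exonic bases, 14.5% lie opposite exons of another gene. Unc13c, a Munc13 of cerebellar granule cells, rose by 0.28 (adjusted p = 0.0111) and 0.23 (adjusted p = 0.0323). Syt11 and Syt9 fell in both genotypes. Cplx1, Syn1, Syt3, Vamp1, Syngr2 and Stx2 were called lower in KO and not in WT mice, but no member had an adjusted p under 0.05 for a difference in the age change (0% of all genes), and 3 of 70 had an unadjusted one, against 3.8% of all genes. Leaving out KO P70 mouse 5 alone gave 4 higher and 12 lower members in KO mice, beside 1178 higher and 1400 lower of all 17633 genes.

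**Figure D4:**
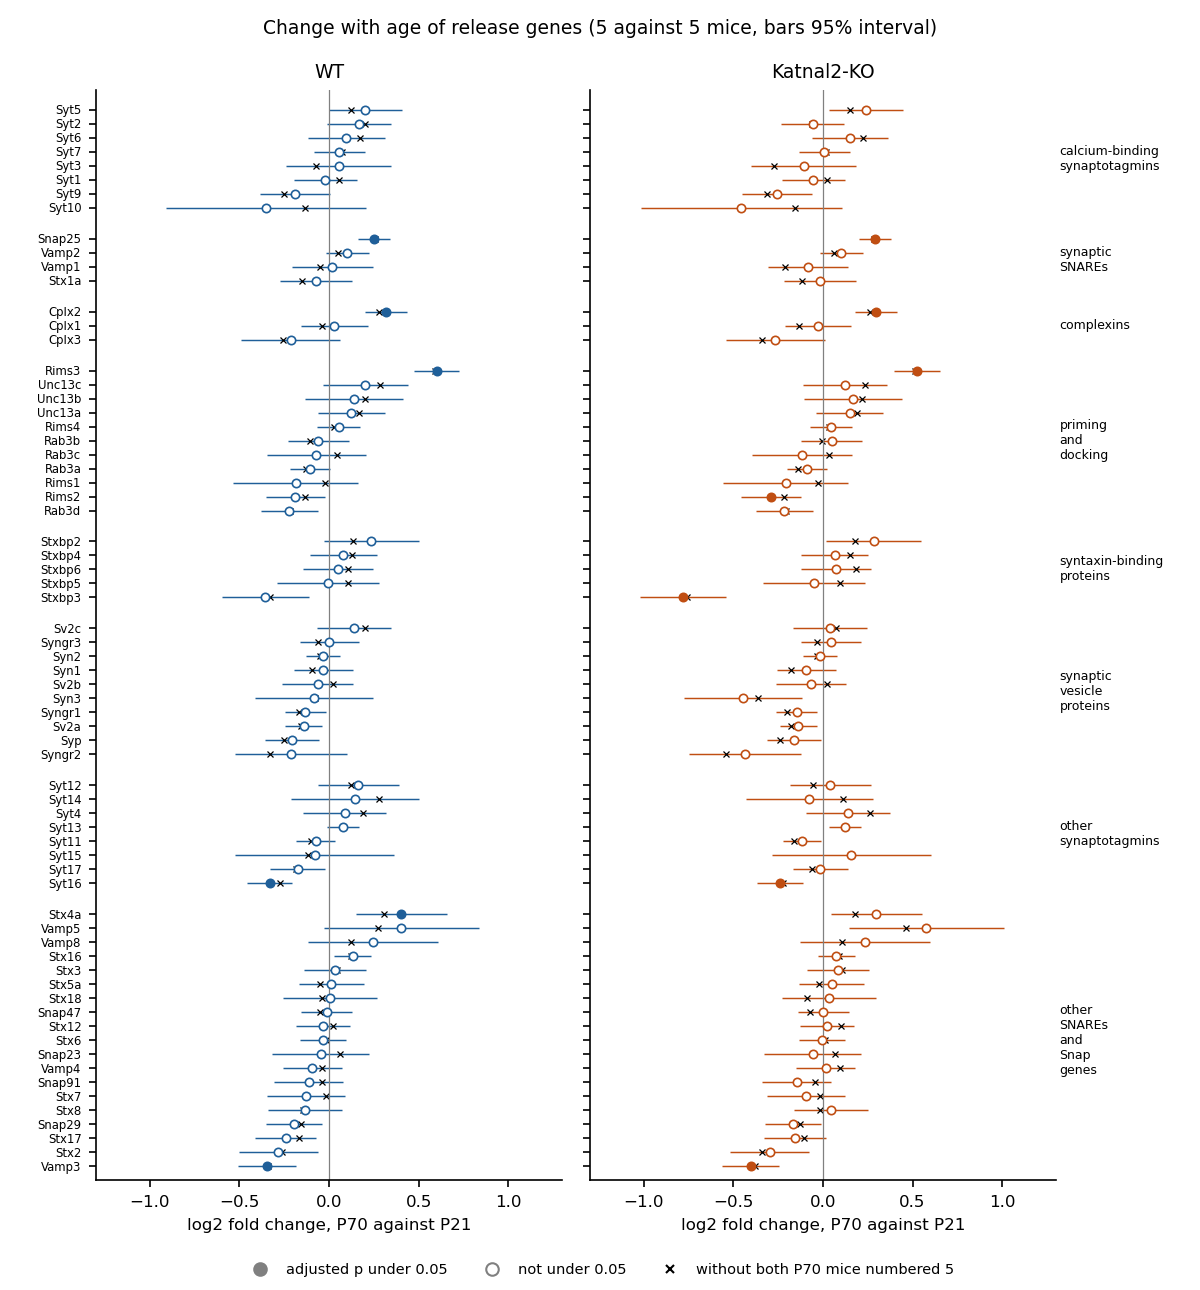
Log2 fold change from P21 to P70 of tested release genes in WT (left) and Katnal2-KO mice (right), grouped by role, with 95% intervals and filled points for an adjusted p under 0.05. Crosses give the value without both P70 mice numbered 5, which moves Syp from -0.20 to -0.25 in WT and from -0.16 to -0.24 in KO mice and leaves Rims3 at 0.59 and 0.51.

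Scaling moved the balance of calls. The mean log2 level of the pan-neuronal markers differed by -0.06 between P70 and P21 in both genotypes. With each mouse scaled to it, 6 members were higher and 2 lower at P70 in WT mice and 9 higher and 2 lower in KO mice, and over all genes 1822 were higher and 650 lower in WT and 1769 and 710 in KO mice. On the deposited scale the split over all genes was 975 and 991 in WT and 965 and 1129 in KO mice. Rims3, Snap25 and Cplx2 were called higher and Vamp3 lower in both genotypes under all 11 other planned settings of the fit and with each mouse left out in turn.

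Ratios of close relatives within a mouse do not depend on the scaling between mice, and 10 such ratios were compared in each comparison. Rims3 against Rims1, as a log2 ratio of normalized counts, went from -0.15 ± 0.17 at P21 to 0.59 ± 0.43 at P70 in KO mice (SD, n = 5). The exact permutation test, two-sided, gave p = 0.00794, its lower limit for groups of 5, and an adjusted p of 0.0397 over the 10 ratios. In WT mice it went from -0.24 ± 0.17 to 0.55 ± 0.40 with the same exact permutation p and an adjusted p of 0.0794. The ages did not overlap in either genotype, but the highest ratios, 1.24 and 1.36, were those of the P70 mice numbered 5. Without them the difference was 0.61 in WT and 0.54 in KO mice. Syngr3 against Syngr1 rose by 0.19 in KO mice (exact permutation p = 0.00794, adjusted p = 0.0397) and differed by 0.13 in WT mice (exact permutation p = 0.0476, adjusted p = 0.119). Cplx1 against Cplx2 had a difference of -0.29 in WT (exact permutation p = 0.0159, adjusted p = 0.0794) and of -0.32 in KO mice (exact permutation p = 0.0159, adjusted p = 0.0529). With 1 mouse left out no exact p falls under 0.0159, so both adjusted calls in KO mice were lost without any 1 mouse other than KO P70 mouse 5. The other 7 ratios did not pass in either genotype with all mice. Without both P70 mice numbered 5, the KO ratios of Cplx1 to Cplx2 (difference -0.40) and of Sv2b to Sv2a (0.20) also passed, each with an exact permutation p of 0.0159 and an adjusted p of 0.0397, and no ratio passed in WT mice.

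Genes that work around the release machinery were read from 4 fixed lists. Over all genes tested, 5.53% were called higher and 5.62% lower in WT mice, and 5.47% and 6.4% in KO mice. Without both P70 mice numbered 5, these shares were 11.2% and 9.97% in WT and 10.9% and 11.1% in KO mice. Of 22 other release genes, 1 rose and 2 fell in WT and 1 rose and 3 fell in KO mice. Without both P70 mice numbered 5, 4 rose and 4 fell in WT and 3 rose and 4 fell in KO mice. Bsn (Bassoon), a scaffold of the active zone, rose by 0.35 (SE 0.08, adjusted p = 0.00463) in WT and 0.31 (SE 0.08, adjusted p = 0.0096) in KO mice. Of 21 genes of vesicle recycling, 3 rose and 1 fell in WT and 1 rose and 1 fell in KO mice, and without both mice numbered 5 the counts were 5 and 6 in WT and 3 and 7 in KO mice. Sh3gl3, an endophilin, fell by 0.73 (SE 0.10, adjusted p = 3.07e-05) and 0.78 (SE 0.10, adjusted p = 1.35e-05), and Itsn1 (intersectin) rose by 0.25 (adjusted p = 0.0167) and 0.21 (adjusted p = 0.0411).

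Of the 6 vesicular transporters tested of 7 listed, none rose, 1 fell in WT and 3 fell in KO mice. Without both mice numbered 5 these were 1 and 4. Over all genes, 5.62% were called lower in WT and 6.4% in KO mice, and 9.97% and 11.1% without both mice numbered 5. Slc17a7, which fills vesicles with glutamate in cortex and hippocampus, fell by 0.19 (SE 0.05, adjusted p = 0.027) in WT and 0.16 (SE 0.05, adjusted p = 0.0493) in KO mice. Slc17a6, its counterpart of thalamus and brainstem, had -0.26 (adjusted p = 0.0667) in WT and fell by 0.29 (adjusted p = 0.0394) in KO mice. The excitatory neuron markers, a list that holds both of these genes, summed to 75491 to 85795 at P21 and 80651 to 87642 at P70. Of 6 other vesicle membrane proteins none passed in either genotype with all mice, and without both mice numbered 5, 1 fell in WT and 2 fell in KO mice. With all mice, Scamp5 had -0.14 and -0.11 and Sypl -0.23 and -0.31.

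At neither age did a release gene pass the adjusted test between Katnal2-KO and WT mice. At P21, 0 of 70 members and 0% of 17610 genes passed an adjusted p of 0.05 by limma, and 4 members (5.71%) had an unadjusted p under 0.05, against 2.44% of all genes. All 4 were higher in KO mice, and 1.49% of all genes were both higher and under that unadjusted p. The genotypes did not overlap for 2 members, Syt3 and, in the lower direction, Stx12, against 0.46% of all genes. Syt2, the fast calcium sensor of hindbrain and inhibitory synapses, had 4675, 4951, 3515, 4688 and 4704 normalized counts in WT and 5419, 5195, 4626, 5103 and 5487 in KO mice. WT mouse 3 was the low one, and the groups overlapped. The log2 fold change was 0.20 (SE 0.08, unadjusted p = 0.0294, adjusted p = 1), and 0.12 without WT mouse 3. Vamp1, the synaptobrevin of hindbrain and spinal synapses, had 6839 to 8247 in WT and 7766 to 8865 in KO mice and a log2 fold change of 0.13 (SE 0.06, unadjusted p = 0.0331). Syt3 had 1537 to 1574 in WT and 1577 to 1788 in KO mice, without overlap, and 0.11 (SE 0.05, unadjusted p = 0.0374). Stxbp3 had 0.22 (SE 0.10, unadjusted p = 0.0486). All 4 had an adjusted p of 1. Hox genes, which mark hindbrain and cord (13 genes), summed to 43 to 387 in WT and 163 to 597 in KO mice at P21. Their part in the values of Syt2 and Vamp1 was not tested.

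At P70, 0 of 70 members passed after adjustment (0% of 17613 genes) and 0 had an unadjusted p under 0.05, against 1.13% of all genes. The genotypes overlapped for all 70, where 0.193% of all genes were separate. The members' median log2 fold change was -0.007 at P21 and -0.013 at P70, beside 0.004 and -0.005 for all genes. At P70, 26 of 70 members lay above 0, as did 8427 of 17613 genes. Without both P70 mice numbered 5, 22 of 70 members and 8786 of 17650 genes did, with medians of -0.020 and -0.0006. Whether the members lean lower as a set was not tested here. The study ran a gene set enrichment analysis over all ranked genes and reported lower synapse-related sets in KO mice at P70. Those sets are not the members taken here. The smallest p among members was 0.113, for Vamp5 with a log2 fold change of 0.37 (SE 0.22, 95% interval -0.10 to 0.85). Syt2 had -0.02 and Vamp1 0.03 (95% intervals -0.20 to 0.15 and -0.26 to 0.33), where P21 had 0.20 and 0.13. The test of that difference gave -0.22 (SE 0.12, unadjusted p = 0.0766, adjusted p = 1) for Syt2 and -0.10 (SE 0.15, unadjusted p = 0.516) for Vamp1. Over the 70 members the test of a different age change gave 0 with an adjusted (0% of all genes) and 1, Stxbp3, with an unadjusted p under 0.05, against 1.68% of all genes.

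The width of the intervals limits what these genotype comparisons can show. For Snap25, the 95% interval of the log2 fold change was -0.10 to 0.09 at P21 and -0.07 to 0.14 at P70. For Syp it was -0.14 to 0.05 and -0.20 to 0.19, and for Syt1 -0.12 to 0.09 and -0.28 to 0.17. Rims1, which both mice numbered 5 set apart, had -0.19 to 0.16 and -0.49 to 0.41. Without both P70 mice numbered 5, 0 of 70 members had an adjusted or an unadjusted p under 0.05 at P70, against 0.00567% and 3.69% of all genes. Syn3, a synapsin of low level, had 391.7 to 523.4 normalized counts in KO and 245.9 to 475.9 in WT mice at P21, and 264 to 393.9 and 296.5 to 428.9 at P70. The genotypes overlapped at both ages, and 14.1% of its exonic bases lie opposite exons of Timp3. None of the 55 tested genes of the 4 lists passed at either age after adjustment. With an unadjusted p under 0.05 there was 1 at P21 and 0 at P70, against 2.44% and 1.13% of all genes.

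**Figure D5:**
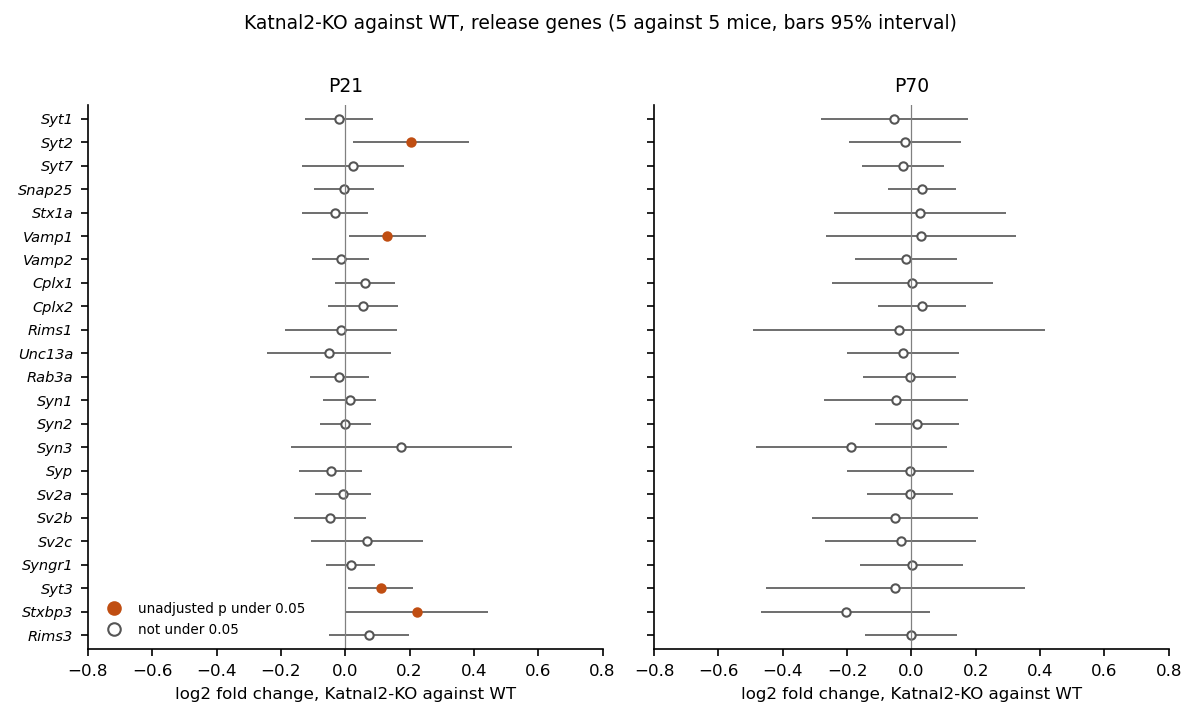
Log2 fold change of Katnal2-KO against WT mice at P21 (left) and P70 (right) for core release genes and the 3 others Syt3, Stxbp3 and Rims3, with 95% intervals from 5 against 5 mice. Filled points mark an unadjusted p under 0.05, which Syt2, Vamp1, Syt3 and Stxbp3 have at P21 and none has at P70, and no gene passed the adjusted threshold.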

How the data were processed

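Poly-A RNA of 20 whole mouse brains was sequenced from TruSeq RNA v2 libraries, a kit that does not mark strand. Per the study's methods, the authors quantified transcripts against GRCm38 with Salmon and GC bias correction, imported them with tximport and normalized them with DESeq2. The submitters' processing notes name Salmon 1.1.0, DESeq2 1.26.0 and R 3.6.2, whereas the study's methods name other versions of R and DESeq2, and which made the deposited values is not known. The deposited values are normalized counts, a signal without whole reads, so no count model was run on them. Depth was estimated from the smallest steps of these values, and covers counting only. Samples were grouped by the labels' genotype and age, and nothing in the labels ties equal replicate numbers together.

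Values were tested as log2(value + 1) with limma 3.58.1 (R 4.3.3), with an intensity trend and Benjamini-Hochberg adjustment over all genes with a mean of at least 10 in the mice fitted. Fold changes are on that scale, which understates changes of low genes. Age and its interaction with genotype were fitted over all 20 mice, and each genotype comparison over the 10 mice of that age. Ratios of related members were compared by exact two-sided permutation tests (scipy 1.17.1).

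Gene positions and exon lengths came from GENCODE M21 (19447 of 19463 IDs matched). Members, lists and tests were chosen with earlier results of these data known. Members named singly are a fixed core set, called members whose groups do not overlap (up to 12 by size in each genotype), the 6 with the smallest p in each other comparison, the genes of the ratios and the 2 genes of each list with the smallest p in WT mice. Members named only for leaving both mice numbered 5 out (Syt4, Unc13c, Syt11, Syt9, Syngr2, Stx2) were chosen after their values were seen. So were Syt10, Rab3c, Syt14 and Stxbp5, for their distance in those mice, and Cplx3 and Stx12. Stx4a, Rims2, Slc17a6, Itsn1 and Syt3 fall under the rule. Details given on them beyond it were also chosen after their values were seen. Alternatives were the trend, the filter, the pseudocount, 4 other scalings, the replicate block, the call, the mice in the fit, and each mouse left out. Some genes that entered the fits and counts are not reported here by name or in the plots.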

Additional observations from a re-analysis of the deposited data

Results flagged for a closer look

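In 136 groups of 5 mice (34 members by 4 groups), single mice lay far from the other 4 by Dixon's criterion (gap over range above 0.71) in 29 cases. Chance gives about 1 in 20 for independent groups. The 34 members share the same 20 mice and some were picked by their results, so the cases are not independent and that rate is no test of their number. Of the 29 cases, 22 were in the P70 mice numbered 5, 14 in the KO and 8 in the WT mouse. Values are normalized counts, with the range of the other 4 mice of the group.

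In WT P70 mouse 5, Vamp2 had 26864 (others 22175 to 23031), Cplx1 had 20537 (others 15785 to 16636), Cplx2 had 31793 (others 27604 to 28466), Syp had 33687 (others 27961 to 28924), Syngr1 had 16926 (others 14600.2 to 15045) and Syt3 had 2283 (others 1395 to 1560.2), all above the other mice. Syt1 had 27412 (others 33980.5 to 36908) and Rims1 had 3607 (others 6169 to 6471), both below them. In KO P70 mouse 5, Stx1a had 6436 (others 4202 to 4739), Vamp1 had 11284 (others 6790.0 to 7592), Vamp2 had 25964 (others 22121 to 22765), Cplx1 had 22645 (others 15294 to 16256), Rab3a had 16193 (others 13608 to 13934) and Syn1 had 18834 (others 13534 to 14506) (all high). Also high in that mouse, Syp had 36510.3 (others 26844 to 28528), Sv2a had 15551 (others 13480.2 to 13870.5), Syngr1 had 17651 (others 14398 to 15051), Stx4a had 1584 (others 1004 to 1119) and Syt3 had 2465 (others 1297 to 1482). On the low side of KO P70 mouse 5, Rims1 had 3330.1 (others 5857 to 6575), Sv2b had 8403 (others 11020.5 to 12106) and Rims2 had 2459 (others 3076 to 3260.0). Vamp2, Cplx1, Syp, Syngr1, Syt3 and Rims1 were flagged in both mice numbered 5, each in the same direction. Agreement was not limited to these members, as the deviations of the 2 mice had a correlation of 0.705.

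The other cases were spread over 4 mice. In WT P21 mouse 3, Syt2 had 3515 (others 4675 to 4951), Syt7 had 8269 (others 9875 to 10457) and Syn3 had 245.9 (others 440.5 to 475.9), all low, and Vamp2 had 22543 (others 21477 to 21648), which was high. In WT P21 mouse 5, Syt17 had 1344 (others 1261 to 1282). Rims3 was low in KO P70 mouse 3, at 7575 (others 8364 to 8549), still above every P21 mouse. Vamp3 was high in KO P70 mouse 2, at 903.9 (others 710.4 to 752.1), and still below every P21 KO mouse.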

How the results depend on the processing

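The P70 mice numbered 5 limit the age results most. Members called with age numbered 6 in WT and 7 in KO mice (1966 and 2094 genes in all). Leaving out both mice numbered 5, chosen after seeing the data, gave 16 and 24 (3731 and 3879 genes), 1 gene at P70 between genotypes and 4 ratios in KO mice in place of 2. A change of at least 1.5-fold gave 1 and 1 (619 and 690 genes). An unadjusted p gave 17 and 22 members (4309 and 4376 genes), 4 between genotypes at P21 (429 genes), 199 genes at P70, and 1 member and 296 genes for the interaction. Scaling to the pan-neuronal markers gave 11 members in KO mice (2479 genes in all). The cause of these shifts was not tested, except that fewer or looser conditions change the counts by construction.

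Leaving out single mice gave 5 to 8 members in WT and 6 to 16 in KO mice, the 16 without KO P70 mouse 5 (1386 to 1946 and 1447 to 2578 genes), 0 to 1 genes between genotypes at P21, and 0 to 4 ratios in KO mice. With the replicate block, 8 members were called in WT (4 higher, 4 lower, beside 1148 and 1142 of all genes). In KO mice 9 were called (4 and 5, beside 1155 and 1256 of all genes). Between genotypes 0 were called, with unadjusted counts of 732 genes at P21 and 610 at P70. Deviations of WT and KO mice of the same number correlated from -0.00913 to 0.26 at P21 (2 of 5 over 0.1) and from 0.0749 to 0.705 at P70 (4 of 5), and 2 and 3 of these pairs correlated best with their own number. The labels do not say that a number marks a shared origin and not every pair was over 0.1, so the fit without the block was kept. The direction changed for 3 genes that did not pass the test with all mice: Syn1 in WT mice with pan-neuronal scaling (0.0304), Cplx1 in KO mice with quantile (0.0075) and pan-neuronal scaling (0.0345) and over single mice left out (-0.13 to 0.0094), and Stx1a in KO mice with pan-neuronal scaling (0.0466) and over single mice left out (-0.12 to 0.0350).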
